A study of Mus musculus with 78 samples.

Results

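The proteasome subunits followed here are the genes whose symbol is Psma, Psmb, Psmc or Psmd followed by a number. Of 18820 genes with a probe set of their own on the array, 38 fit that rule. They comprise 7 subunits of the alpha ring, 7 constitutive and 4 inducible or thymic subunits of the beta ring, 6 ATPases, 3 further base subunits, 8 lid subunits and 3 assembly chaperones of the regulatory particle. Psma4 is not among them because its probe set is annotated with more than 1 symbol. The lungs came from 78 male C57BL/6J mice, about 10 weeks old, that had been given food only in the dark phase before the study. The baseline group of 9 mice was euthanized at lights on, 35 mice were sleep-deprived (SD) by gentle handling from lights on for 3, 6, 9 or 12 h (9, 9, 9 and 8 mice), and 34 mice were left undisturbed with the opportunity for spontaneous sleep (SS) over the same hours (9, 7, 9 and 9 mice). Each mouse gave 1 array of whole lung RNA, the undisturbed mice were not asleep for all of the time before euthanasia, and loss of sleep cannot be told apart from the handling and activity that came with it.

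The proteasome degrades proteins that carry chains of ubiquitin. Its barrel-shaped 20S core is built from outer rings of alpha subunits, which gate the entrance, and inner rings of beta subunits, a few of which cut the protein. A 19S regulatory particle caps the core, with ATPases that unfold the substrate, receptors that hold ubiquitin and a lid that removes it. Cells with interferon signalling, and immune cells at rest, exchange the cutting subunits for the inducible Psmb8, Psmb9 and Psmb10, which gives the immunoproteasome and favours peptides for display to T cells. Subunit transcripts are known to be induced together by the factor NRF1 through antioxidant response elements when proteasome activity falls short.

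Promoters are shown first because joint control of the subunits is known to act there, and because inducible and constitutive subunits are set side by side in the values below. RefSeq promoter windows of 300 bases, from 250 bases before to 50 bases after the annotated start in the assembly GRCm38.p6, were matched to 31 of the 38 subunits. The letters TGACNNNGC, the core of the antioxidant response element, were found on either strand in 5 of the 31 (16.1%), namely Psmb5, Psmb6, Psmc6, Psmd12 and Psmd9, and in 13.99% of 27025 genes. The interferon-stimulated core GAAANNGAA was found in 5 of 31 (16.1%) and in 9.76% of genes, and none of the 5 was an inducible subunit. CCAAT was found in 13 of 31 (41.9%) and in 41.06% of genes. The heat shock core GAANNTTC was found in 2 of 31 (6.5%), Psmb5 and Psmb9, and in 9.04% of genes. The windows of Psmb5 and Psmc6 are printed for their antioxidant core. Those of Psmb8 and Psmb9 are printed as windows of inducible subunits, whose values are given below. Capitals mark the antioxidant core in Psmb5, which begins at position -47 from the start, and in Psmc6, where it lies on the opposite strand from position -227. In Psmb9 they mark the reverse complement of CCAAT, from position -8, and the heat shock matches of Psmb5 and Psmb9 are left in lower case. In Psmb8 nothing is marked because none of the 4 motifs was found.
Psmb5, chr14:54617946-54618245 (minus strand): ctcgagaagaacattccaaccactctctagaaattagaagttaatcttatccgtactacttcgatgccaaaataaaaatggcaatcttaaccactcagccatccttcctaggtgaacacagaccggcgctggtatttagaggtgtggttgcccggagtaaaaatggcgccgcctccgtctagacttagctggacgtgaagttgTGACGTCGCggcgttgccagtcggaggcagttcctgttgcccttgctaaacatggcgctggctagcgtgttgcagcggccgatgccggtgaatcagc
Psmc6, chr14:45329574-45329873 (plus strand): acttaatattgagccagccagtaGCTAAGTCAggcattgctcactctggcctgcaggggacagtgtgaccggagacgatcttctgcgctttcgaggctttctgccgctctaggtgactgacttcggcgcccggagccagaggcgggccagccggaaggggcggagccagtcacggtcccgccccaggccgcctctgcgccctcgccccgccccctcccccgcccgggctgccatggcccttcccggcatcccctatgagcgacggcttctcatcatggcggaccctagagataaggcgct
Psmb8, chr17:34197945-34198244 (plus strand): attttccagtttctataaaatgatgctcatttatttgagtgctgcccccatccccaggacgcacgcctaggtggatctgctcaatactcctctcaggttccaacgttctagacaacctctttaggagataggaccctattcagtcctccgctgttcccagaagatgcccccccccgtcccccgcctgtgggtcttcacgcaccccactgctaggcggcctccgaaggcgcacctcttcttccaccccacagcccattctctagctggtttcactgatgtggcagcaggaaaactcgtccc
Psmb9, chr17:34187281-34187580 (minus strand): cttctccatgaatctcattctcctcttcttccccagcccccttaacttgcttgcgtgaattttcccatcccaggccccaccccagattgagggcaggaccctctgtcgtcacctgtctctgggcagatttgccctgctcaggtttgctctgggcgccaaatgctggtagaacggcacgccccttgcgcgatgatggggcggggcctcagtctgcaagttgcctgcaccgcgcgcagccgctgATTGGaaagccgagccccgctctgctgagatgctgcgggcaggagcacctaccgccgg
These matches describe the letters of the windows only. Psmb5 encodes the constitutive chymotrypsin-like subunit that Psmb8 replaces, Psmc6 is an ATPase of the base, and Psmb9 lies beside the peptide transporter gene Tap1 in the major histocompatibility region.

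Values are log2 intensities, on which 1 unit is a doubling, and levels of different probe sets cannot be set against each other. All 7 markers of alveolar type 2 cells, which define lung, were measured, and surfactant gene Sftpc averaged 13.25. Array numbers in the labels form 4 runs, of which 2 hold only 9 h and 12 h groups, so that the step from 6 h to 9 h cannot be told apart from a change of run. An alternative with 5 runs splits the run of the baseline mice. The SD mice of that run then lie in 1 part and its SS mice in the other, with baseline mice in both. The number of 15 arrays falls on another condition than their label. When each was set against group means of 200 probe sets made without it, all 15 lay nearest to the condition their number gives and 0 to their label, whereas 60 of the other 62 lay nearest to their label. No condition is left for array 81 by its number. Conditions were used as labelled, and values without these 16 arrays (62 mice) are given where they change a call. One mouse sleep-deprived for 12 h, array 27, had a mean of the T cell list above that of all other 77 mice and is treated with Psmb11 below.

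Proteasome subunits were measured with little spread between mice. The SD within groups had a median of 0.122 over the 38 subunits, from 0.0716 for the lid subunit Psmd11 to 0.282 for Psmb11, the thymic beta subunit, and a median of 0.137 over all genes. Without array 27 the value of Psmb11 was 0.136. The widest spreads after it belonged to the inducible Psmb9 (0.244) and Psmb8 (0.219). The range of the 9 group means had a median of 0.172 over the subunits and 0.220 over all genes. It was smallest for the alpha subunit Psma2, at 0.0913. It was largest for the alpha subunit Psma3, at 0.40, which averaged 10.42 ± 0.08 (SD, n = 9) at baseline and 10.82 ± 0.13 (SD, n = 9) after 9 h of deprivation. The mean over all mice was at least 6 for 36 subunits. Psma8, the alpha subunit of the testis, and Psmb11 had means of 4.55 and 4.48, and the highest mean was that of Psmb3, a non-catalytic beta subunit, at 11.70.

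The first question was whether sleep-deprived and sleeping lungs differed in subunit transcripts over all hours. No subunit passed limma's test at an adjusted p under 0.01 (Benjamini-Hochberg over all probe sets), where 3.68% of all genes were higher and 4.35% lower in SD. At an unadjusted p under 0.05, 7 of the 38 were reached, 3 higher and 4 lower. Without the 16 arrays 12 were reached, 7 of them higher. Such counts, here and below, stand without the share of all genes under that p and are not read as an excess. The SD - SS difference had a median of -0.0023 over the subunits and -0.00039 over all genes, and 18 of the 38 were positive. The median size of the difference, sign aside, was 0.0360 for the subunits and 0.0459 for all genes. The extremes were Psmb8 at -0.18 and Psmd7, a structural subunit of the lid, at 0.11. The 95% confidence intervals hold for the conditions as labelled. They lay within 0.25 of 0 for 37 subunits, all but Psmb8, and within 0.5 for all 38, with a median half-width of 0.0606. Without the 16 arrays the differences of Psmb8 (-0.25) and Psmc6 (0.14) were larger, so these intervals do not bound what labels may have hidden.

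**Figure D1:**
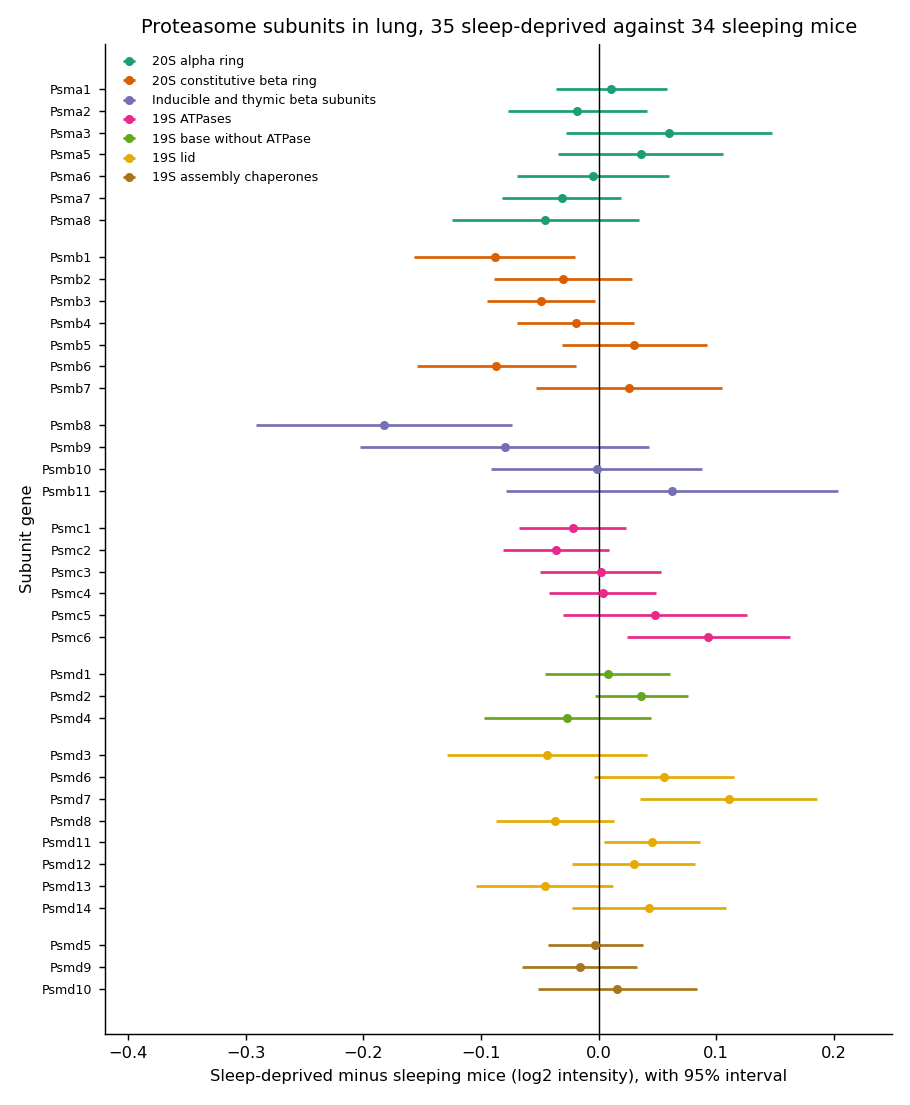
SD - SS difference over all hours (log2, x axis) of each of the 38 proteasome subunits, grouped by their place in the complex, with 95% confidence intervals from limma. Intervals lie within 0.25 of 0 for 37 subunits, and that of Psmb8 reaches -0.29.

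By structure, the median SD - SS difference over all hours was -0.0047 for the alpha ring, -0.03 for the constitutive beta ring, -0.04 for the inducible and thymic beta subunits, 0.0027 for the ATPases, 0.0079 for the rest of the base, 0.04 for the lid and -0.0029 for the chaperones. Psmb1 and Psmb3, non-catalytic beta subunits, and Psmb6, the caspase-like one, made up the constitutive beta subunits with an unadjusted p under 0.05. Psmb1 differed by -0.09 (adjusted p = 0.0786, limma) and Psmb6 by -0.09 (95% interval -0.15 to -0.02, adjusted p = 0.0789, limma). Psmb3 had 11.67 in SD and 11.72 in SS as means, a difference of -0.05 (95% interval -0.10 to -0.0029, adjusted p = 0.163, limma). The second probe sets of Psmb1 and Psmb3 gave -0.07 and -0.08. Psmc6 ran from 9.22 to 9.96 with a median of 9.69 in SD and from 9.22 to 9.82 with a median of 9.64 in SS, and the states overlapped widely. Its difference was 0.09 (95% interval 0.02 to 0.16, adjusted p = 0.0632, limma), and without the 16 arrays 0.14 (adjusted p = 0.00571, limma), past the threshold. Psmd7 ran from 10.08 to 10.76 with a median of 10.32 in SD and from 10.03 to 10.61 with a median of 10.26 in SS, again with wide overlap. Its difference was 0.11 (95% interval 0.04 to 0.19, adjusted p = 0.0409, limma). It was 0.16 with 5 runs as a block (adjusted p = 0.00646, limma) and 0.12 with array weights (adjusted p = 0.00924, limma). With 5 runs, the SD and SS mice of the split run share no block. The difference of Psmd7 passed under no other alternative, and within the 4 runs it was 0.19, 0.11, 0.0079 and 0.17. Psmc6 and Psmd7 are named here after their values were seen.

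The catalytic subunits come in pairs, in which an inducible subunit can take the place of a constitutive one: Psmb8 that of Psmb5 (chymotrypsin-like), Psmb9 that of Psmb6 (caspase-like) and Psmb10 that of Psmb7 (trypsin-like). Psmb8 ran from 8.57 to 9.65 with a median of 8.91 in the 35 SD mice and from 8.59 to 9.67 with a median of 9.13 in the 34 SS mice. The groups overlapped over nearly their whole range, but 30 of 34 SS mice lay above the SD median and 10 of 35 SD mice above the SS median. The means were 8.96 and 9.14, a difference of -0.18 (SE 0.05, 95% interval -0.29 to -0.07), which missed the threshold with an adjusted p of 0.0185 (limma). Without the 16 arrays it was -0.25 (SE 0.06, adjusted p = 0.00124, limma), and with array weights -0.19 (adjusted p = 0.0062, limma), both past it. Within the 4 runs it was -0.22, -0.03, -0.18 and -0.34. In whole lung, fewer cells of a type and less RNA per cell cannot be told apart.

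Psmb9 ran from 8.98 to 10.01 with a median of 9.46 in SD and from 8.86 to 10.09 with a median of 9.55 in SS, so the states overlapped throughout. Its difference was -0.08 (95% interval -0.20 to 0.04, adjusted p = 0.434, limma). Psmb10 ran from 9.11 to 9.90 with a median of 9.47 in SD and from 9.01 to 10.05 with a median of 9.44 in SS. Its difference was -0.0017 (95% interval -0.09 to 0.09, adjusted p = 0.988, limma). Of the constitutive partners, Psmb5 ran from 11.08 to 11.48 in SD and from 10.99 to 11.77 in SS, with medians of 11.26 and 11.22. Its difference was 0.03 (95% interval -0.03 to 0.09, adjusted p = 0.575, limma). Psmb6 ran from 9.78 to 10.36 in SD and from 9.85 to 10.57 in SS, with medians of 10.04 and 10.14. Psmb7 ran from 9.13 to 9.82 in SD and from 9.14 to 9.90 in SS, with medians of 9.41 and 9.36. Its difference was 0.03 (95% interval -0.05 to 0.10, adjusted p = 0.733, limma). SD and SS mice overlapped widely for each of these.

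**Figure D2:**
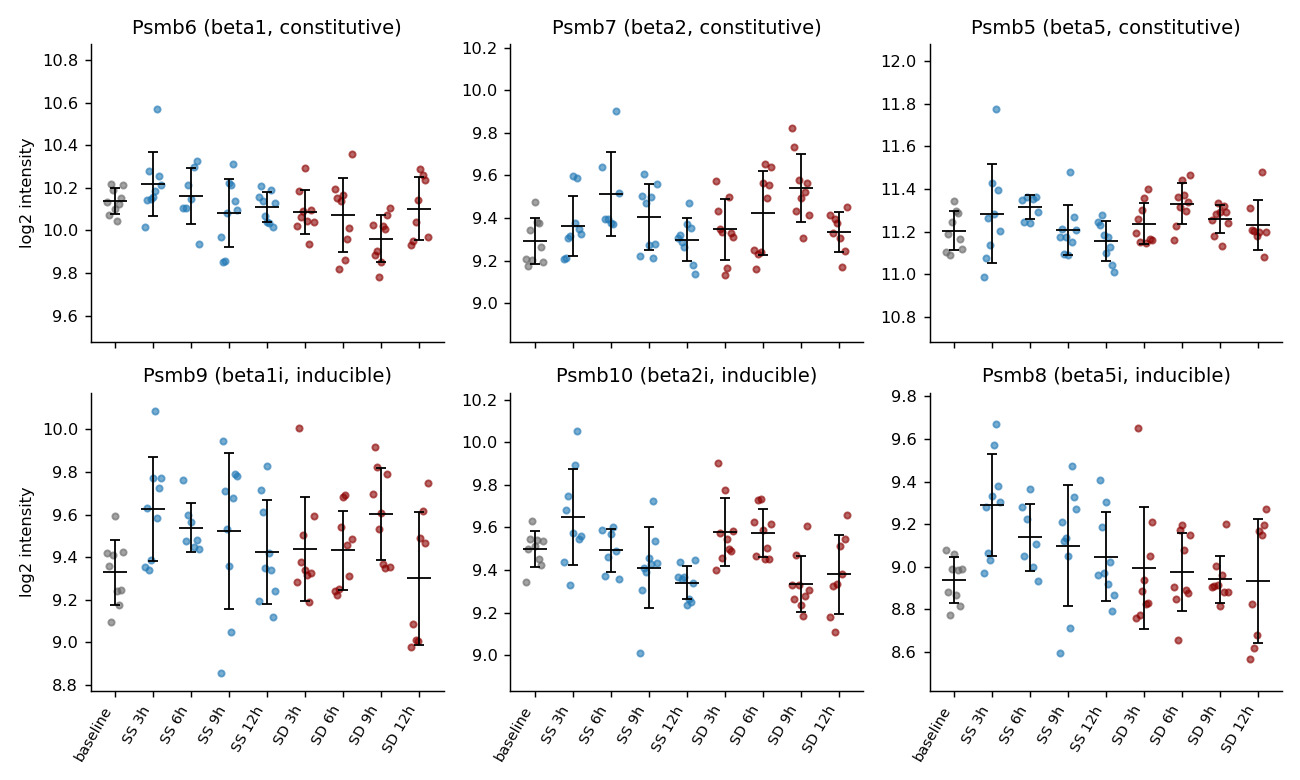
Log2 intensity (y axis) of the 3 constitutive catalytic subunits (upper row) and the inducible subunits that replace them (lower row) in every mouse, over the 9 groups of state and hour (x axis). Points are mice and bars are mean ± SD (n = 7 to 9). Psmb8 averages 8.94 at baseline, 9.29 after 3 h of sleep and 8.99 after 3 h of deprivation, and mice of both states overlap in every panel.

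Lymphocyte markers moved with state in these lungs. All 9 B cell markers measured passed the test as lower in SD over all hours (median difference -0.67), as did 7 of 9 NK cell markers (-0.36) and 3 of 9 T cell markers (-0.33). By hour, B, NK and T cell markers passing as lower numbered 9, 1 and 0 at 3 h and 8, 4 and 1 at 9 h. At 6 h and 12 h 0 passed, and at 12 h the T cell markers had a median difference of 0.07. That value includes array 27, in which the mean of the T cell list was 9.38. Over mice, this mean had a median of 6.20 in SD and 6.56 in SS at 12 h. The mean of the B cell list ran from 8.56 to 9.26 after 3 h of sleep and from 7.11 to 8.18 after 3 h of deprivation, with no overlap. That of the NK cell list ran from 6.50 to 7.50 and from 6.12 to 7.36. Of 8 markers of neutrophils and monocytes, 4 passed as lower at 3 h (median difference -0.69). At 6, 9 and 12 h 0 of them passed (0.31, -0.17 and -0.26). Over all hours 1 of these 8 passed as lower, as did 1 of 5 for macrophages. That macrophage marker was the only 1 of the 5 lower in SD, and their median difference was 0.06. Of 7 for alveolar type 2 cells 1 passed as higher, as did 1 of 6 for endothelium. Of 4 for airway cells, 4 for thymus and 6 for liver 0 passed (limma, with 0, 1 and 0 at an unadjusted p under 0.05). The liver list had a median difference of -0.43 over all hours and -2.08 at 3 h. The part of any of them in the values of Psmb8 was not tested.

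After group means were removed, mice with high Psmb8 also had high Psmb9 (r = 0.83, rho = 0.83 over 78 mice) and Psmb10 (r = 0.63, rho = 0.48). Psmb8 also followed Psme2, a subunit of the activator that joins the immunoproteasome (r = 0.74), and Tap1 (r = 0.56). The mean of the inducible subunits followed the NK cell list (r = 0.61, rho = 0.45), the B cell list (0.50 and 0.38) and the T cell list (0.31 and 0.31), and without the 16 arrays these r were 0.46, 0.29 and 0.28. The median r over pairs of subunits was 0.63 for Psmb8, Psmb9 and Psmb10, and 0.26 when Psmb11 was counted with them. It was 0.18 in the alpha ring, 0.14 in the constitutive beta ring, 0.11 among ATPases, -0.03 in the lid, -0.26 in the rest of the base and 0.05 among chaperones, and differences between classes were not tested. Class means gave r = 0.79 for ATPases and lid, 0.79 for ATPases and base and 0.73 for base and lid. These correlations are descriptions. The points share array, normalization and cell composition.

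Each hour was then compared on its own. At 3 h no subunit passed limma's test, where 3.62% of all genes were higher and 3.74% lower in SD, and 3 subunits had an unadjusted p under 0.05, all lower. The median difference was -0.02 for the subunits and 0.0069 for all genes, and 12 of 38 were positive (52.5% of all genes). Without the 16 arrays 18 of 38 were positive (median -0.0027), and 9 had an unadjusted p under 0.05, 3 of them higher. With centred arrays 16 of 38 were positive. With all arrays as labelled, all 7 constitutive and all 4 inducible or thymic beta subunits had negative differences. These ran from -0.30 for Psmb8 to -0.00029 for Psmb11, while 5 of 8 lid subunits were positive. Within one of the 2 runs of this hour Psmb5 (0.07), Psmb7 (0.04), Psmb9 (0.0063) and Psmb10 (0.07) were positive. Psmb6 (-0.02), Psmb8 (-0.13) and Psmb11 (-0.07) were negative in that run. Psmb8 ran from 8.76 to 9.65 with a median of 8.89 in SD and from 8.97 to 9.67 with a median of 9.30 in SS. Of the 9 SD mice 6 lay below all SS mice, and the highest SD mouse lay just under the highest SS mouse. Its difference was -0.30 (SE 0.10, 95% interval -0.50 to -0.09, adjusted p = 0.0416, limma), and within the 2 runs that hold this hour it was -0.13 and -0.50. With all arrays, the other 2 subunits with an unadjusted p under 0.05 were Psmb6 at -0.13 (adjusted p = 0.151, limma) and the lid subunit Psmd8 at -0.10 (adjusted p = 0.159, limma). Intervals at 3 h lay within 0.25 of 0 for 34 subunits and within 0.5 for 38.

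At 6 h no subunit passed limma's test and 0 had an unadjusted p under 0.05, where 0.0319% of all genes were higher and 0.0531% lower. Differences ran from -0.16 for Psmb8 to 0.10 for Psma5, an alpha subunit, with 18 positive. The smallest adjusted p was 0.484 for Psmd1, the large scaffold of the base (limma). Without the 16 arrays 738 of 18820 genes passed at 6 h, against 16 with all arrays. No subunit passed then either, but 5 had an unadjusted p under 0.05, all lower. At 12 h no subunit passed limma's test, where 0.0478% of all genes were higher and 0.085% lower, and 2 subunits, Psmc6 and Psmb11, had an unadjusted p under 0.05, both higher. The difference of Psmc6 at 12 h was 0.17 (adjusted p = 0.464, limma). Without the 16 arrays 127 of 18820 genes passed at 12 h, against 25 with all arrays, and still no subunit. With all arrays Psmb8 gave -0.16 at 6 h, -0.16 at 9 h and -0.11 at 12 h. Within the 2 runs of each hour it gave -0.23 and -0.02 at 6 h, and -0.11 and -0.21 at 9 h. At 12 h the runs differed in sign, with -0.35 and 0.15. A change of its difference over the hours gave an adjusted p of 0.817 in limma's F test. Intervals lay within 0.25 of 0 for 34 subunits at 6 h and 33 at 12 h.

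At 9 h no subunit passed limma's test, where 0.797% of all genes were higher and 2.08% lower in SD. An unadjusted p under 0.05 was reached by 8 subunits, 4 higher and 4 lower, and 18 of 38 differences were positive. Without the 16 arrays it was reached by 11, 7 of them higher. With all arrays the higher 4 were Psmd7, Psmc5 (an ATPase, 0.21), Psma3 (0.20) and Psmb7 (0.14). The lower 4 were Psma8 (-0.17), Psmb1 (-0.14), Psmb2 (a non-catalytic beta subunit, -0.12) and Psmb3 (-0.12). Psmd7 ran from 10.31 to 10.76 with a median of 10.54 in SD and from 10.03 to 10.61 with a median of 10.24 in SS. All 9 SD mice lay above the SS median, 3 of them above all SS mice, and 5 SS mice lay below all SD mice. The means were 10.54 and 10.30, a difference of 0.24 (SE 0.07, 95% interval 0.11 to 0.37, adjusted p = 0.0125, limma). It was 0.28 and 0.20 within the 2 runs that hold this hour. With the 4 runs as a block the same difference passed (adjusted p = 0.00793, limma), and without the 16 arrays it was 0.22 (adjusted p = 0.0396, limma). Intervals lay within 0.25 of 0 for 29 subunits and within 0.5 for 38.

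**Figure D3:**
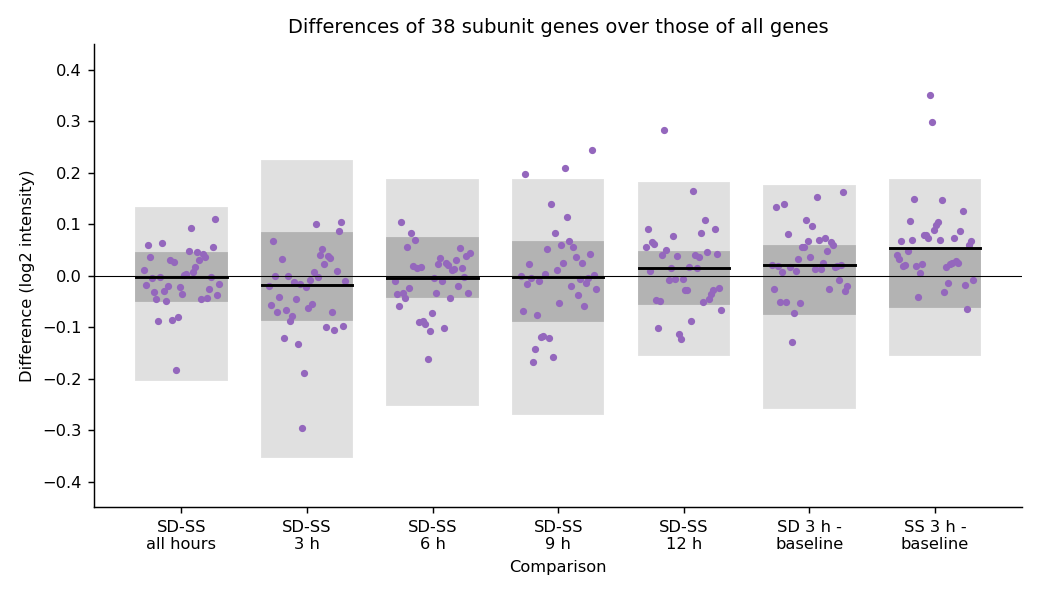
Log2 differences (y axis) of the 38 subunits (points) in 7 comparisons (x axis), over the spread of all 18820 genes (light band 5th to 95th percentile, dark band 25th to 75th) with a black line at the subunits' median. Subunits beyond the 95th percentile number 3 at 9 h, 1 at 12 h and 2 for sleep at 3 h against baseline, and 0 lie under the 5th percentile in any comparison.

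Whether the SD - SS difference changed over the hours was tested directly. No subunit passed limma's F test, against 0.0691% of all genes, and 2 had an unadjusted p under 0.05. These were Psmb2 (F = 3.16, adjusted p = 0.239) and Psmc5 (F = 2.93, adjusted p = 0.268). Without the 16 arrays 201 of 18820 genes passed, against 13 with all arrays, and again no subunit.

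Psmb11, the dimmest of the subunits, is the beta subunit of the thymoproteasome of cortical thymic epithelium. Array 27, from a mouse sleep-deprived for 12 h, gave 6.66, whereas the other 7 mice of that group ran from 4.24 to 4.68 with a median of 4.46. Psmb11 was the only subunit of the 38 in which this mouse lay above all other 77 mice, and in 0 did it lie below them. In the same mouse Dntt, the terminal transferase of immature lymphocytes, was 9.56 against at most 6.62 in the others, and Themis, a signalling protein of thymocytes, was 10.09 against at most 7.22. Ptcra, the pre-T cell receptor chain, was 6.20 against at most 5.74. The remaining gene of the thymus list beside Psmb11, Cd1d1, which encodes a lipid-presenting molecule, was not raised, at 7.45 against a median of 7.45 and at most 9.88 in the others. The mean of the T cell list was 9.38, against 5.94 to 7.42 in the others. Next highest for Psmb11 was array 28 (4.87), labelled as 9 h of sleep and among the 16. It was also next highest in the mean of the thymus list without Psmb11 (6.74, against 8.33 in array 27) and of the T cell list (7.42). The SD - SS difference of Psmb11 at 12 h was 0.28 (95% interval 0.01 to 0.55, adjusted p = 0.625, limma) with array 27 and 0.01 (adjusted p = 0.995, limma) without it.

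**Figure D4:**
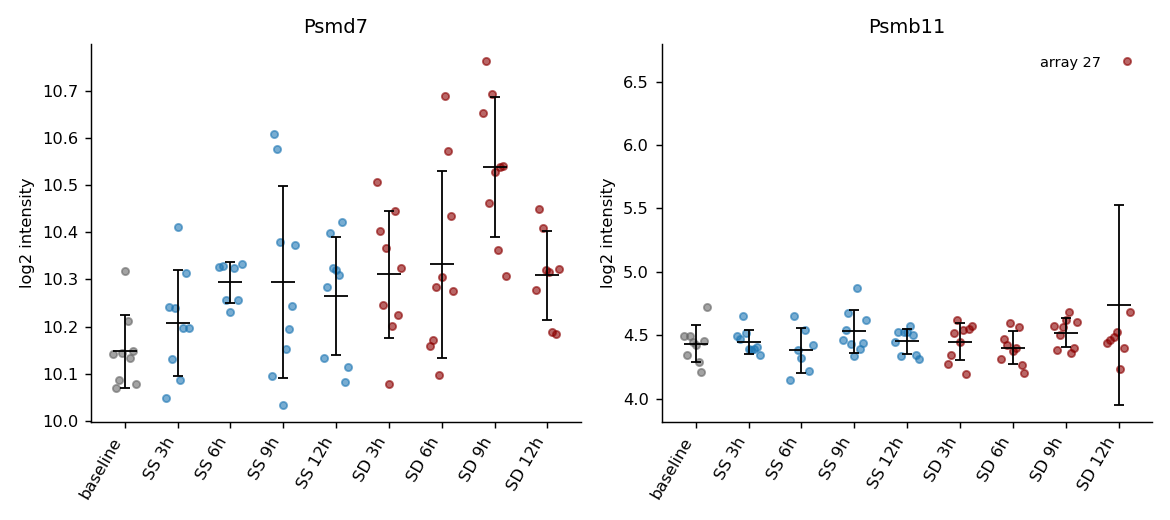
Log2 intensity (y axis) of the lid subunit Psmd7 and the thymic subunit Psmb11 in every mouse over the 9 groups of state and hour (x axis), with mean ± SD as bars (n = 7 to 9). Psmd7 averages 10.54 in SD and 10.30 in SS at 9 h, and Psmb11 lies at 6.66 in array 27 (marked) and at no more than 4.87 in the other mice.

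The time course was followed from baseline through each state as a linear slope, given as the log2 change over 12 h. Through sleep no subunit passed limma's test, where 4.47% of all genes had a rising and 3.41% a falling slope, and 8 had an unadjusted p under 0.05 (6 positive and 2 negative). The slope of Psmb10 was -0.22 (95% interval -0.36 to -0.08, adjusted p = 0.0267, limma), with means of 9.50 ± 0.08 at baseline, then 9.65 ± 0.23, 9.49 ± 0.10, 9.41 ± 0.19 and 9.34 ± 0.08 (SD, n = 9, 9, 7, 9 and 9). All mice of the last of these groups lay below the baseline median of 9.51. The chaperones Psmd5 and Psmd9 had slopes of 0.10 (adjusted p = 0.0475, limma) and 0.11 (adjusted p = 0.0539, limma). Through deprivation no subunit passed limma's test, where 5.84% of all genes had a rising and 6.28% a falling slope, and 9 had an unadjusted p under 0.05 (7 positive and 2 negative). The lid subunit Psmd3 had -0.19 (adjusted p = 0.0179, limma) and Psmd7 had 0.23 (adjusted p = 0.0192, limma). Psmb4, a non-catalytic beta subunit, had 0.12 (adjusted p = 0.0255, limma) and Psmb10 had -0.19 (adjusted p = 0.0362, limma). Both slopes share the baseline mice, and both span the change of run. With the 4 runs as a block 0 of the 18820 genes passed for either slope (limma), and subunits with an unadjusted p under 0.05 numbered 4 through sleep and 1 through deprivation. Intervals lay within 0.25 of 0 for 34 subunits through sleep and 30 through deprivation.

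After 3 h of deprivation, compared with baseline, no subunit passed limma's test, where 0.999% of all genes were higher and 0.877% lower. The median difference was 0.02 (-0.0039 over all genes), 28 of 38 were positive (48.2% of all genes), and 5 had an unadjusted p under 0.05 (4 higher and 1 lower). The smallest adjusted p was 0.163, for Psmd7 at 0.16 (limma). After 3 h of sleep, compared with the same baseline mice, no subunit passed limma's test either, where 0.0106% of all genes were higher and 0.00531% lower. Here the median was 0.05 (-0.0065 over all genes), 32 of 38 were positive (46.8% of all genes) and 8 had an unadjusted p under 0.05, all higher. These comprised Psmb8, Psmb9, Psmb10, 4 ATPases and 1 further base subunit. All 9 baseline mice lie in the same run, with 5 of the 9 mice of each 3 h group, and the other 4 of each group lie in another run. With the 4 runs as a block the subunits with an unadjusted p under 0.05 numbered 3 after sleep and 1 after deprivation. Within the run of the baseline mice 30 of 38 differences were positive after sleep (median 0.03) and 29 after deprivation (median 0.05).

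Psmb8 at baseline ran from 8.77 to 9.08 with a median of 8.99. Of the 9 mice that slept for 3 h, 6 lay above all baseline mice. The difference from baseline was 0.35 (95% interval 0.15 to 0.55, adjusted p = 0.223, limma) for sleep and 0.05 (95% interval -0.15 to 0.26, adjusted p = 0.879, limma) for deprivation. Psmb9 gave 0.30 (95% interval 0.07 to 0.52, adjusted p = 0.353, limma) for sleep and 0.11 for deprivation, and Psmb10 gave 0.15 and 0.08. Within the run that holds the baseline mice (5 mice against 9) these differences were smaller for sleep, at 0.20 for Psmb8, 0.17 for Psmb9 and 0.06 for Psmb10, while those for deprivation were 0.06, 0.17 and 0.12. Intervals lay within 0.25 of 0 for 31 subunits after deprivation and 32 after sleep, and within 0.5 for 38 and 36, the exceptions being Psmb8 and Psmb9. The B cell list averaged 8.57 at baseline, 8.80 after 3 h of sleep and 7.84 after 3 h of deprivation.

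Around the subunits stand their assembly factors, activators, ubiquitin receptors, unfoldase and transcription factors, and 40 further genes of these lists were measured. Over all hours none of the 40 passed limma's test (median difference 0.0060), and 13 had an unadjusted p under 0.05. The share of all genes under that p is not given, so this count is not read as an excess. The 5 assembly factors of the core, Pomp and the chaperones Psmg1 to Psmg4, had a median of 0.0014, and the 5 activators and inhibitor a median of -0.07. Nfe2l1, which encodes NRF1, Nfe2l2, its relative in the oxidative stress response, and Ngly1, which helps to activate NRF1, ranged from 0.0048 to 0.07. The 6 genes of the p97 unfoldase had a median of 0.01 and the 6 stress-induced partners -0.01. The 10 antigen presentation genes, Psme1 and Psme2 among them, had a median of -0.06.

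At 3 h 1 of the 40 passed, as higher, where 3.62% of all genes did so, and the count is thus no more than the share of all genes. It was Zfand2a (AIRAP), a proteasome partner induced by arsenite and heat. It ran from 10.12 to 10.84 with a median of 10.59 in SD and from 10.09 to 10.40 with a median of 10.21 in SS. Of the SD mice 5 lay above all SS mice. The difference was 0.26 (SE 0.07, adjusted p = 0.00914, limma). It was 0.48 within one run and -0.01 within the other that holds this hour, and with 5 runs as a block it was 0.21 (adjusted p = 0.0505, limma), no longer past the threshold. With only the mice of 3 h in the fit the adjusted p was 0.11, and with arrays centred on their median 0.0165 (limma).

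At 9 h 3 of the 40 (7.5%) were lower in SD, where 2.08% of all genes were, and they are named here after their values were seen. Psme1, a subunit of the 11S activator, ran from 9.06 to 9.48 with a median of 9.26 in SD and from 9.48 to 9.82 with a median of 9.64 in SS. All 9 SD mice lay below all SS mice. It fell by 0.38 (SE 0.08, adjusted p = 0.00299, limma), whereas its partner Psme2 differed by -0.03 (adjusted p = 0.782, limma). Tapbp (tapasin), which loads peptides onto class I molecules, ran from 10.86 to 11.11 in SD and from 11.11 to 11.39 in SS, with medians of 11.02 and 11.22. Again no SD mouse reached an SS mouse, and Tapbp fell by 0.21 (SE 0.05, adjusted p = 0.00299, limma). Psmf1, which encodes the proteasome inhibitor PI31, ran from 9.11 to 9.46 in SD and from 9.27 to 9.96 in SS, with medians of 9.39 and 9.65. Of the SS mice 8 lay above all SD mice, and Psmf1 fell by 0.33 (SE 0.06, adjusted p = 0.000697, limma). Within the 2 runs the differences were -0.43 and -0.31 for Psme1, -0.17 and -0.26 for Tapbp and -0.32 and -0.35 for Psmf1. With only the mice of 9 h in the fit the adjusted p rose to 0.0193, 0.0497 and 0.0517 for Psme1, Tapbp and Psmf1 (limma).

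None of the 40 passed limma's test at 6 h or 12 h (1 and 0 at an unadjusted p under 0.05), for the slope through sleep (15) or against baseline after 3 h of deprivation (6) or of sleep (4). For the slope through deprivation 5 passed (12.5% of the 40), 1 rising and 4 falling, where 5.84% of all genes rose and 6.28% fell, so that the share of the 40 is near that of all genes. Ubxn1, an adaptor of p97, had a slope of 0.19 over 12 h (adjusted p = 0.00262, limma). Negative slopes were found for Bag3, a co-chaperone of selective autophagy (-0.41, adjusted p = 0.00014, limma), Ubqln4, a shuttle receptor (-0.27, adjusted p = 0.00261, limma), Bag6, which guards misplaced membrane proteins (-0.18, adjusted p = 0.00393, limma), and Rad23b, a shuttle receptor (-0.14, adjusted p = 0.00983, limma). With the 4 runs as a block none of these slopes passed, nor did that of any of the 18820 genes, and those of Bag3, Bag6, Rad23b and Ubqln4 then had the opposite sign.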

How the data were processed

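Lung RNA of 78 mice was extracted with TRIzol and RNeasy columns and hybridized to Affymetrix Mouse Gene ST arrays, with 1 array for each mouse. The log2 values deposited by the authors of 35556 probe sets are intensities that the authors processed with RMA (background correction, quantile normalization and summary of the probes) in the R package oligo. The decimal point, absent from the deposited numbers, was put back, which gave values from 2.27 to 13.85. Arrays have no read depth, and the number of mice limits the precision. A gene took its probe set with the highest mean among those annotated with 1 symbol. Differences between groups, slopes from baseline and the F test of a changing difference were fitted to all probe sets with lmFit and eBayes of limma 3.58.1 (R 4.3.3), with Benjamini-Hochberg adjustment over all probe sets and a threshold of 0.01. As in the study, SD and SS were compared over all hours without a term for time.

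The subunits, the gene lists and the alternatives were chosen with earlier results of these data known. By rule, Psmb5 to Psmb10, the brightest and the dimmest subunit and the pathway genes past the threshold over all hours and at 3 h were named, with any subunits past the threshold. Other genes were named after their values were seen. Alternatives were runs as a block, array weights, trended and robust variances, a filter at a mean of 6, any probe set, centred arrays, single hours, time as a factor, other forms of the slope, and leaving out 16 arrays or array 27. The procedure was tested on simulated data. Promoter windows came from RefSeq. Heart arrays were not analysed here. Summaries were made with pandas 2.3.3 under Python 3.11.15, and plots with matplotlib 3.10.9.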

Additional observations from a re-analysis of the deposited data

Results flagged for a closer look

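Of 90 groups of mice tested for a single mouse apart from the rest (Dixon's criterion, which chance meets in about 1 of 20 groups), 8 met it. Psmb11 after 12 h of deprivation was 6.66 in array 27, against a next value of 4.68, in the mouse with the highest mean of the T cell list. After 3 h of deprivation, array 43 had 9.65 for Psmb8 (next 9.21) and 10.01 for Psmb9 (next 9.59). Psmb8 after 9 h of deprivation was 9.20 in array 22 (next 9.00). After 3 h of sleep, array 76 had 10.57 for Psmb6 (next 10.28) and 9.22 for Psmc6 (next 9.48). Psmb5 after 9 h of sleep was 11.48 in array 28 (next 11.27), and Psmc6 after 3 h of deprivation was 9.22 in array 46 (next 9.61). Arrays 28 and 46 are among the 16 whose number does not match their label.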

How the results depend on the processing

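The counts of subunits passing the threshold, 0 in each of the 10 comparisons, were recomputed under 97 alternatives. The count stayed at 0 under 85 of them and was above 0 under 12. Over all hours it was 1 with 5 runs as a block, 2 without the 16 arrays and 3 with array weights. At 9 h it was 1 with 4 runs as a block, 1 with 5 runs as a block, 1 with array weights and 1 with a mean log2 intensity of at least 6. For the slope through sleep it was 1 with array weights and 2 with a common intercept for both states. For the slope through deprivation it was 5 with array weights, 3 with a common intercept and 1 without array 27, an alternative chosen after seeing the data. Subunits that passed under at least 1 alternative number 7: Psma3, Psmb8, Psmb10, Psmc6, Psmd3, Psmd5 and Psmd7. Single genes gave 197 further values, of which 8 changed sign. Psmb10 over all hours was 0.0004 with array weights. Slopes through deprivation with 4 runs as a block were 0.0288 for Bag3, 0.0638 for Bag6, 0.0215 for Rad23b and 0.157 for Ubqln4, and with 5 runs 0.0938 for Bag6, 0.0445 for Rad23b and 0.146 for Ubqln4. The cause was not tested. No paired analysis was possible because the labels give no replicate numbers shared between groups.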
